A study of Mus musculus with 6 samples.

Results

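Mitochondrial ribosomal proteins are the nucleus-encoded proteins of the ribosome that works inside mitochondria. Their genes were taken from the deposited table as the rows whose symbol starts with Mrpl or Mrps followed by a number and whose transcript types include protein_coding. This rule gave 78 of the 33971 genes, 49 named for the large subunit (Mrpl) and 29 named for the small subunit (Mrps). Another 5 rows with such symbols were processed pseudogenes and were left out. The transcript type column lists every type of a gene's transcripts, and 12 of the 78 genes have protein_coding as their single type. Among these 12 the median log2 fold change, taken here and throughout as 18-month over 2-month cartilage, was 0.41. In the edgeR test described below (adjusted p-value below 0.05), 6 of them were higher and 1 was lower at 18 months. Of all tested genes, 23.4% were higher and 27.9% lower. Poly(A)-selected RNA of articular cartilage from wild-type (WT) mice was sequenced, with 3 libraries at 2 months of age and 3 at 18 months. Neither group carried a treatment. FPKM values are counts scaled by transcript length and library size. The study's methods describe male mice, and do not say whether a library was made from 1 animal or from a pool. The labels do not tie libraries to animals, so p-values measure the spread between these libraries, which may be partly technical.

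The mitochondrial ribosome translates the few messages of the mitochondrial genome, all of which encode subunits of the respiratory chain and the ATP synthase. Its small subunit decodes the message and its large subunit joins amino acids and releases the new chain at the inner membrane. The ribosomal RNAs are made in the mitochondrion, while every ribosomal protein is translated in the cytosol and imported. Some of the proteins have relatives in the bacterial ribosome, and the rest are found in mitochondrial ribosomes alone. Articular cartilage has no blood vessels, and its chondrocytes respire less than most cell types.

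Some properties of the libraries bear on every value. A list of 10 chondrocyte markers, including Col2a1 for type II collagen, took 6.27% to 7.29% of all counts at 2 months and 0.167% to 0.781% at 18 months, and all 10 were lower. Col2a1 was present in every library and Matn3 was at 0 in an 18-month library. The 10 neutrophil markers took 0.000637% to 0.344% at 2 months and 3.85% to 4.18% at 18 months, the 9 erythroid markers 0.0204% to 0.568% and 2.35% to 3.13%, and the 10 proliferation markers 0.00854% to 0.0933% and 0.313% to 0.334%. Of these, 0 neutrophil, 2 erythroid and 7 proliferation markers were higher past the edgeR test (adjusted p-value below 0.05). At an unadjusted p-value below 0.05 in edgeR, 1 neutrophil marker was higher, and 9 were in DESeq2 after adjustment. In each of these 3 lists the highest 2-month share was that of 2-month replicate 2, and without that library all 10, 9 and 10 markers were higher. Elane and Cebpe of the neutrophil list and Epor of the erythroid list were at 0 in a 2-month library. Xist, the transcript of the inactive X chromosome of female cells, had 88239 to 102417 counts at 2 months and 11 to 30 at 18 months. By this transcript alone, the 2-month libraries had a female pattern and the 18-month libraries a male one, although the study's methods describe male mice. Genes of the Y chromosome were not examined. Age and sex cannot be told apart in these libraries. The part of cell composition in the results on mitochondrial ribosomal proteins was not tested. In bulk tissue, a change in the number of cells of a type and a change in RNA per cell cannot be told apart.

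Mitochondrial ribosomal protein genes were mostly higher in aged than in young cartilage, by less than 2-fold in most cases. All 78 passed the filter on low counts and entered the quasi-likelihood test of edgeR, with p-values adjusted over all 20397 tested genes by the method of Benjamini and Hochberg. At an adjusted p-value below 0.05, 40 of them (51.3%) were higher at 18 months, where 23.4% of all tested genes were higher. Lower at 18 months were 2, Mrpl17 and Mrps6, where 27.9% of all tested genes were lower. The remaining 36 did not pass. A log2 fold change beyond 1 in addition was reached by 8 genes upwards (10.3%; 14.9% of all tested genes) and by 1 gene downwards (21.3% of all tested genes). The share past both limits was thus below that of all genes, while the share past the p-value alone was above it. The FPKM values of every 18-month library lay above those of every 2-month library for 57 of the 78 genes, and below them for 2. Among all tested genes, 35.6% lay above and 32.8% below in this way. The median log2 fold change of the 78 genes was 0.50, against −0.02 for all tested genes.

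The subunits had similar medians and shares of higher genes. In the large subunit 26 genes were higher, 1 was lower and 22 did not pass, with a median log2 fold change of 0.52 and quartiles of 0.13 and 0.84. In the small subunit 14 were higher, 1 was lower and 14 did not pass, with a median of 0.43 and quartiles of 0.21 and 0.64. The log2 fold change was above 0 for 44 of 49 and 25 of 29 genes. Standard errors had a median of 0.14 in each subunit, on 101 to 5554 counts per gene and library in the large subunit and 253 to 2883 in the small one. The medians stayed above 0 under each scaling tried, but their size moved. When FPKM values were rescaled to the same total in each library (TPM) and tested with limma, the medians were 0.17 and 0.08, and that of all genes fell to −0.33. Relative to all genes, the medians were then 0.50 and 0.41, against 0.54 and 0.45 with TMM normalization. These depended on which genes were tested. They were lowest, 0.42 and 0.32, with genes limited to a mean FPKM of at least 1, and were 0.62 and 0.53 with no filter. With TPM 13 large and 5 small subunit genes were higher, and 18.2% of all genes. The small subunit count of 14 fell to 9 without 2-month replicate 3, to 9 without 18-month replicate 2 and to 8 without 18-month replicate 3. The shares of all genes were not taken in these fits with a library left out.

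**Figure D1:**
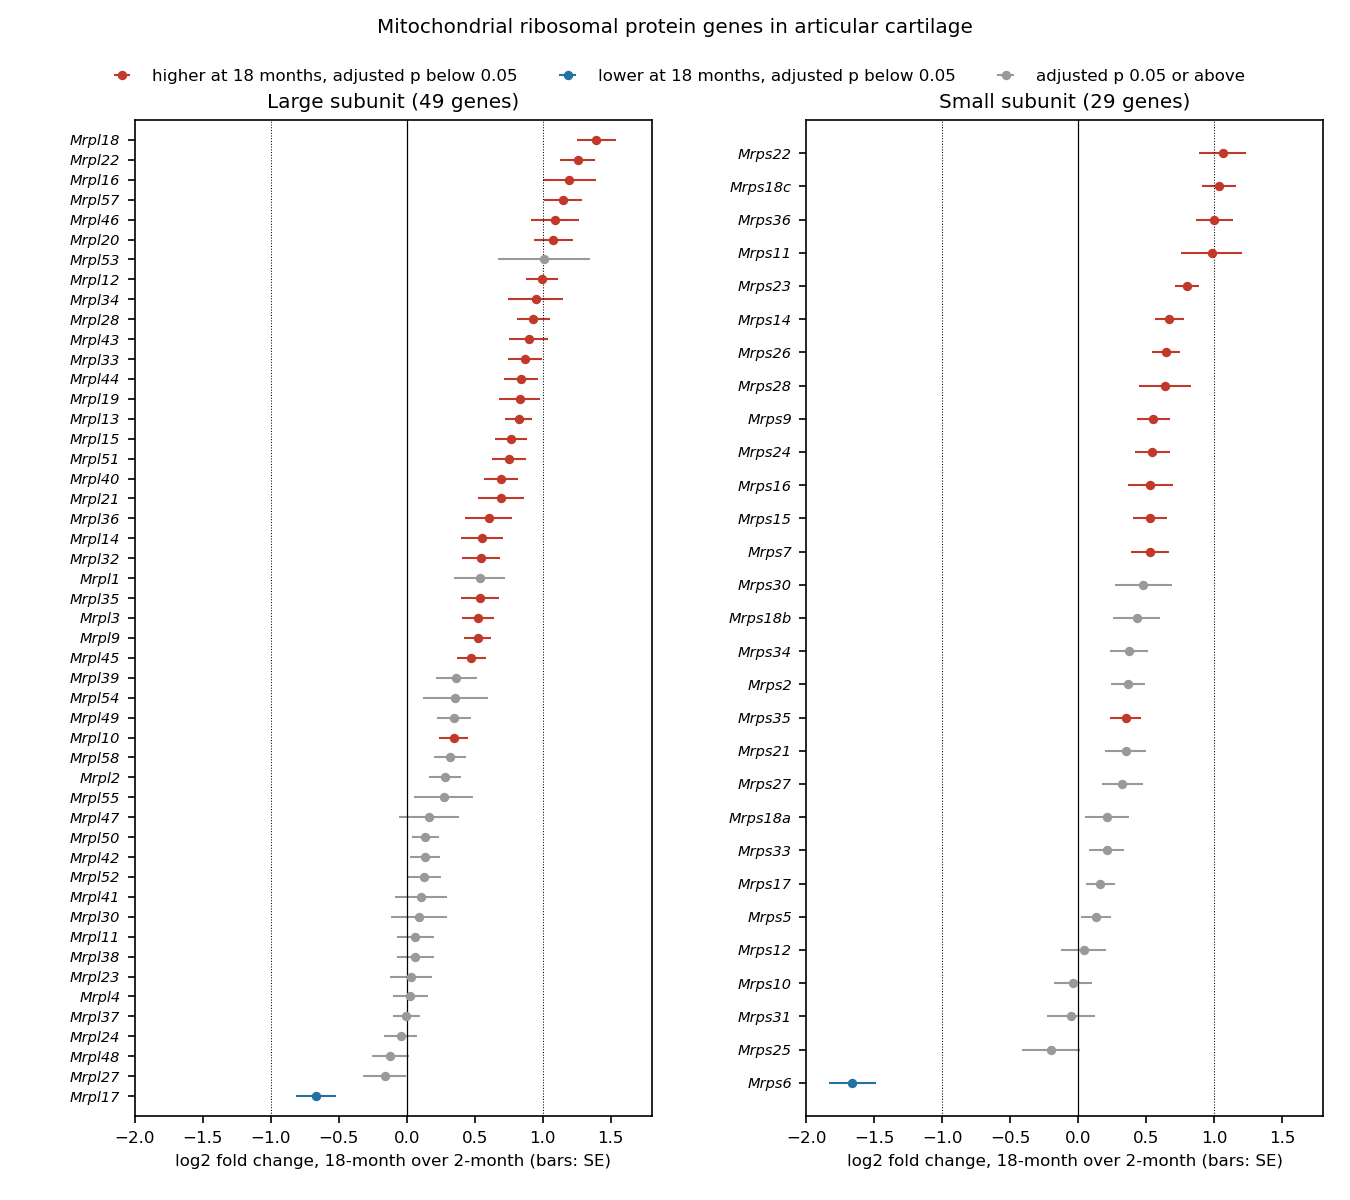
Log2 fold change of 18-month over 2-month cartilage for the 49 large subunit genes (left) and the 29 small subunit genes (right), with standard errors as bars and dotted lines at −1 and 1. Most points lie between 0 and 1, and Mrpl17 and Mrps6 are the 2 blue points below 0.

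In the large subunit, 6 genes were higher past both limits, and 4 of these, Mrpl18, Mrpl22, Mrpl16 and Mrpl20, have a relative in the bacterial ribosome. Mrpl18 (ENSMUSG00000057388, chr17:12911349-12916345, minus strand) encodes a protein of the central protuberance, the crest of the large subunit. Its FPKM was 13.5, 17.2 and 11.1 in 2-month replicates 1, 2 and 3, and 39.8, 38.2 and 37.2 in the 18-month replicates. Every aged value lay above every young value, and the log2 fold change of 1.39 (standard error 0.15, edgeR adjusted p = 0.0017) was the highest of the 78. It stood below Mrpl24 in each young library, and in each aged library it had the highest FPKM of the large subunit. Mrpl22 (ENSMUSG00000020514, chr11:58171661-58179565, plus strand) encodes a protein that lines the exit tunnel. It went from 6.67, 7.58 and 6.32 FPKM to 18.9, 16.3 and 16.7 FPKM (log2 fold change 1.26, standard error 0.13, edgeR adjusted p = 0.0017). The ages did not overlap here either. Mrpl16 (ENSMUSG00000024683, chr19:11770391-11774960, plus strand), a protein near the peptidyl transferase centre, was low in all libraries, at 2.00, 2.78 and 1.70 FPKM in young and 5.64, 4.60 and 5.32 FPKM in aged cartilage. Its log2 fold change was 1.19 (standard error 0.20, edgeR adjusted p = 0.0050).

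Mrpl57 (ENSMUSG00000021967, chr14:57826234-57829296, plus strand) is specific to the mitochondrial ribosome. Its FPKM was 2.61, 2.99 and 2.24 at 2 months and 5.87, 6.20 and 6.24 at 18 months, with a log2 fold change of 1.15 (standard error 0.14, edgeR adjusted p = 0.0023). Mrpl46 (ENSMUSG00000030612, chr7:78775236-78783531, minus strand) belongs to the central protuberance, like Mrpl18. In it 2-month replicate 2 stood above the others, with 6.11 FPKM against 3.99 and 4.21, and the aged libraries had 11.1, 10.7 and 10.2 (log2 fold change 1.09, standard error 0.18, edgeR adjusted p = 0.0049). Mrpl20 (ENSMUSG00000029066, chr4:155802878-155809975, plus strand), an rRNA-binding protein with a bacterial relative, also had its highest young value in 2-month replicate 2. It had 10.05, 13.7 and 9.38 FPKM at 2 months and 23.3, 24.1 and 25.9 FPKM at 18 months (log2 fold change 1.08, standard error 0.14, edgeR adjusted p = 0.0029). Across the 78 genes, 2-month replicate 2 held the highest young value in 41 and 18-month replicate 1 the highest aged value in 48. Without 2-month replicate 2, 10 large and 3 small subunit genes were higher past both limits, and 29 and 15 at the adjusted p-value alone. The latter compares with 32.0% of all genes without that library. The share of all genes past both limits was not taken without that library, so the former have no such comparison.

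The stalk, which receives the translation factors, had 3 listed genes, of which 2 were higher, where 23.4% of all tested genes were higher. Mrpl12, the repeated stalk protein itself, had 10.9, 13.8 and 10.4 FPKM at 2 months and 26.5, 22.6 and 24.4 FPKM at 18 months (log2 fold change 0.996, standard error 0.12, edgeR adjusted p = 0.0021). For Mrpl10, to which Mrpl12 binds, the difference was small, from 13.2, 16.4 and 15.1 FPKM to 20.8, 18.7 and 20.4 FPKM (0.34, standard error 0.11, edgeR adjusted p = 0.038). That call was lost when any 1 library other than 2-month replicate 2 was left out (edgeR adjusted p = 0.078 to 0.12), and with TPM the log2 fold change of Mrpl10 was −0.012. Mrpl11, at the stalk base, had overlapping values of 4.75 to 5.68 and 5.43 to 5.92 FPKM (0.06, standard error 0.14, edgeR adjusted p = 0.72). Within the stalk, log2 fold changes thus ran from 0.06 to 0.996.

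Among all tested genes, 23.4% were higher and 27.9% lower. At the polypeptide exit site, 6 genes were listed, with 2 higher (33.3%), 1 lower and a median of 0.10. Mrpl22 was the highest of them, and Mrpl45, which ties the ribosome to the inner membrane, was higher by 0.47 (standard error 0.11, edgeR adjusted p = 0.014), from 6.09, 7.50 and 6.28 to 9.56, 9.51 and 9.95 FPKM. That call was lost without 2-month replicate 3, 18-month replicate 2 or 18-month replicate 3 (edgeR adjusted p = 0.058, 0.054 and 0.062). Mrpl17 (ENSMUSG00000030879, chr7:105803206-105811099, minus strand), which also surrounds the exit, was the single large subunit gene that was lower. Its FPKM fell from 5.63, 4.43 and 5.02 to 3.66, 3.25 and 3.16, and every aged value was below every young value. Its log2 fold change was −0.67 (standard error 0.15, edgeR adjusted p = 0.013). This call did not hold without 2-month replicate 3, 18-month replicate 2 or 18-month replicate 3, where the edgeR adjusted p-value was 0.051, 0.055 and 0.057 and the log2 fold change −0.65, −0.65 and −0.63. Mrpl24, the most abundant large subunit transcript over all libraries, did not pass, with 26.6, 28.3 and 28.8 FPKM in young and 33.0, 27.6 and 25.3 in aged cartilage (−0.05, standard error 0.12, edgeR adjusted p = 0.77).

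Against 23.4% of all tested genes, 3 of 7 listed genes of the central protuberance (42.9%) were higher, Mrpl18, Mrpl46 and Mrpl40. At its low end stood Mrpl48 (−0.12, standard error 0.13, edgeR adjusted p = 0.48) and Mrpl27 (−0.16, standard error 0.16, edgeR adjusted p = 0.42). Mrpl27 overlapped between the ages at 17.9 to 23.2 and 18.7 to 19.9 FPKM. Mrpl58, a peptidyl-tRNA hydrolase that frees stalled chains, had 4.07, 4.53 and 4.10 FPKM at 2 months and 6.24, 5.20 and 5.28 FPKM at 18 months. Its ages did not overlap, yet it did not pass the test (0.32, standard error 0.12, edgeR adjusted p = 0.066). The least abundant large subunit genes were Mrpl13 and Mrpl15, with means over all libraries of 2.97 and 2.72 FPKM. Both were higher, Mrpl13 by 0.82 (standard error 0.10) and Mrpl15 by 0.77 (standard error 0.12). Mrpl53, named here after its values were seen, had a log2 fold change of 1.01 but the largest standard error of the large subunit, 0.34, and did not pass (edgeR adjusted p = 0.050374).

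In the small subunit, Mrps22 and Mrps18c were higher past both limits. Mrps22 (ENSMUSG00000032459, chr9:98588730-98601660, minus strand), a protein found in mitochondrial ribosomes alone, was among the scarcest transcripts of the subunit in young cartilage. It had 1.56, 2.13 and 1.46 FPKM at 2 months and 4.06, 3.34 and 3.92 FPKM at 18 months, with a log2 fold change of 1.06 (standard error 0.17, edgeR adjusted p = 0.0050). Mrps18c (ENSMUSG00000016833, chr5:100798627-100804471, plus strand), 1 of 3 paralogs related to bacterial protein S18, was second to Mrps21 in mean level. It had 15.6, 14.6 and 16.7 FPKM at 2 months and 33.2, 34.5 and 34.3 FPKM at 18 months (1.04, standard error 0.12, edgeR adjusted p = 0.0022). The other paralogs differed by less and did not pass, Mrps18b with 0.43 (standard error 0.17, edgeR adjusted p = 0.086) and Mrps18a with 0.21 (standard error 0.16, edgeR adjusted p = 0.32). The differences between the paralogs' fold changes were not tested. Past both limits were 4 small subunit genes upwards without 2-month replicate 1, and 1 without 2-month replicate 3. The shares of all genes were not taken in these fits.

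Mrps11, a bacterial-type protein of the platform, was higher by 0.98 (standard error 0.22, edgeR adjusted p = 0.015), and its 2-month values of 3.18, 3.71 and 2.04 FPKM spread more than its 18-month values of 6.50, 5.86 and 6.21 FPKM. Without 18-month replicate 3 it did not pass (edgeR adjusted p = 0.053). Mrps23 had the smallest standard error of the 78. Its FPKM was 12.9, 14.5 and 12.6 in young and 24.9, 24.1 and 24.5 in aged cartilage (0.80, standard error 0.09, edgeR adjusted p = 0.0018). Mrps21, the most abundant small subunit transcript over all libraries, had 30.7, 27.6 and 27.4 FPKM at 2 months. At 18 months it had 45.5, 37.5 and 32.7 FPKM, all above the young values, and it did not pass (0.35, standard error 0.15, edgeR adjusted p = 0.10). Mrps12, which sits at the decoding centre, overlapped between the ages, with 7.90, 7.70 and 7.83 FPKM against 9.54, 7.33 and 8.66 (0.04, standard error 0.17, edgeR adjusted p = 0.86). Mrps10 and Mrps35 had the lowest means, 2.12 and 1.84 FPKM. Mrps10 did not pass (−0.04, standard error 0.14), and Mrps35 was higher by 0.35 (standard error 0.12, edgeR adjusted p = 0.048), a call that was lost when any 1 library but 2-month replicate 2 was left out (edgeR adjusted p = 0.094 to 0.12). With TPM the log2 fold change of Mrps35 was −0.0091. Mrps31 (−0.06, standard error 0.18) and Mrps25 (−0.20, standard error 0.21) did not pass. Without 18-month replicate 1, Mrps25 was lower (−0.46, edgeR adjusted p = 0.037).

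Mrps6 (ENSMUSG00000039680, chr16:92058270-92112227, plus strand), a bacterial-type protein of the small subunit, had the lowest log2 fold change of the 78, at −1.66 (standard error 0.17, edgeR adjusted p = 0.0017). Its FPKM fell from 14.5, 12.7 and 15.5 to 5.55, 4.38 and 4.36, with no overlap between the ages. In young cartilage Mrps6 was close to Mrps18c in level, and in aged cartilage Mrps18c was above it in each library. In the annotation GENCODE M21, Mrps6 shares 159 exon bases on the same strand with Slc5a3, which encodes an inositol transporter. Slc5a3 was lower as well, from 10.7, 9.25 and 13.1 FPKM to 3.58, 1.57 and 1.24 FPKM (−2.47, standard error 0.44, edgeR adjusted p = 0.0065). Mrps6 also shares 305 exon bases with Gm49711. Reads from the shared exon cannot be assigned to 1 of these genes, so the level of Mrps6 is uncertain to that extent.

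**Figure D2:**
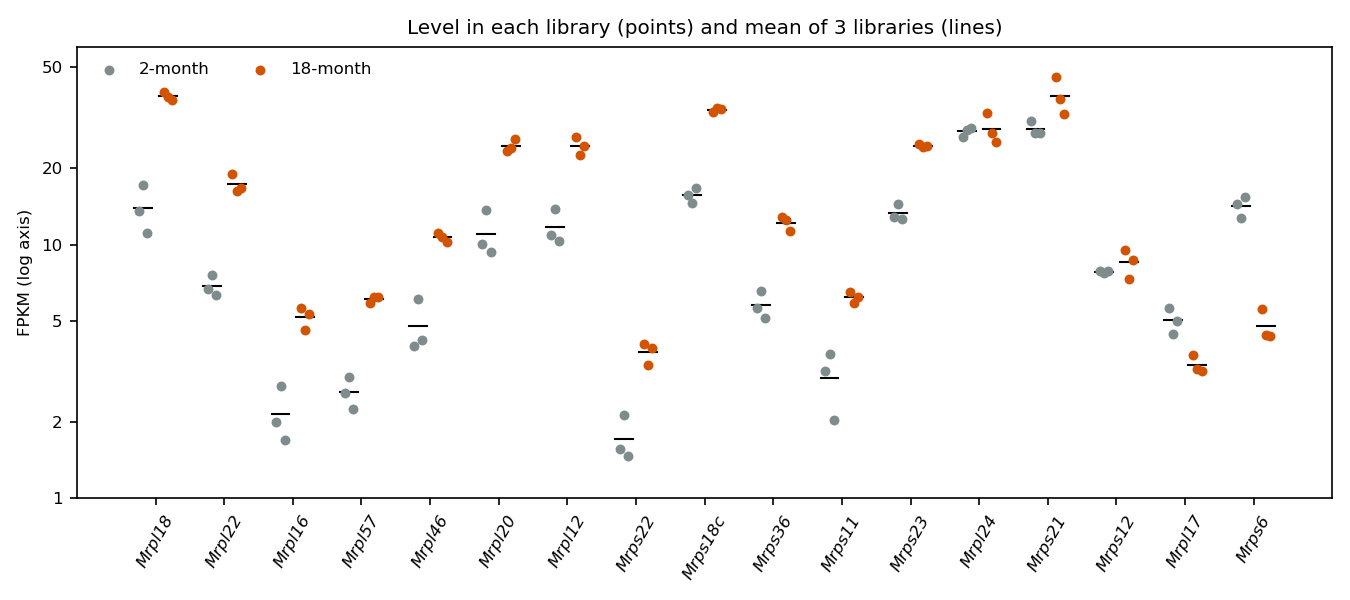
FPKM on a log axis in each 2-month (grey) and 18-month (orange) library for 17 genes, with the mean of 3 libraries as a line. The ages are separate for the 12 genes on the left and for Mrps21, overlap for Mrpl24 and Mrps12, and are inverted for Mrpl17 and Mrps6.

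Some symbols do not match the place of the protein. Mrps18a and Mrps30 encode proteins that sit in the large subunit, and Mrps36 encodes a component of the 2-oxoglutarate dehydrogenase complex of the citric acid cycle. Mrps36 was higher by 0.9995 (standard error 0.14, edgeR adjusted p = 0.0030), with 5.62, 6.58 and 5.13 FPKM at 2 months and 12.8, 12.5 and 11.3 FPKM at 18 months. Mrps30 had 2.75, 2.05 and 1.75 FPKM against 3.06, 3.52 and 3.08 FPKM and did not pass (0.48, standard error 0.21, edgeR adjusted p = 0.0997). Without 2-month replicate 1 it was higher (0.71, edgeR adjusted p = 0.021). With genes sorted by place, the large subunit had 51 genes and a median of 0.52 and the small subunit 26 genes and a median of 0.40. Higher were 26 and 13 of them (51.0% and 50.0%), against 23.4% of all tested genes.

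Proteins with a bacterial relative and proteins specific to mitochondria were then set apart, against 23.4% of all tested genes higher and 27.9% lower. Mrps18a, Mrps18b and Mrps18c are paralogs related to the same bacterial protein. Here Mrps18c was counted as bacterial-type, and Mrps18a and Mrps18b as mitochondrion-specific. Counts with Mrps18a and Mrps18b as bacterial-type were not taken. In the large subunit, 19 of 30 bacterial-type genes were higher and 1 was lower (median 0.54). Of 21 mitochondrion-specific genes there, 7 were higher (median 0.36). With Mrpl55 counted as mitochondrion-specific instead, these were 19 of 29 (median 0.55) and 7 of 22 (median 0.35). In the small subunit, 9 of 16 bacterial-type genes were higher and 1 was lower (median 0.53), and 4 of 10 mitochondrion-specific genes were higher (median 0.36). In both subunits the bacterial-type median was the higher one, and this difference was not tested.

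The level of the whole ribosomal protein set was described by the sum over its genes. Summed FPKM of the large subunit went from 388 ± 17.5 in young to 581 ± 21.7 in aged cartilage, and that of the small subunit from 204 ± 6.76 to 292 ± 16.6 (SD, n = 3 libraries each). The ratios of 1.50 and 1.43 were nearly alike, and the sums of the ages did not overlap. The large subunit exceeded the small one 1.91-fold ± 0.0437 in young and 1.995-fold ± 0.0415 in aged cartilage (SD, n = 3 each), and these ratios overlapped. Summed FPKM of all genes was 269586 to 293109 at 2 months and 360504 to 387501 at 18 months, a ratio of 1.35. On the TPM scale, which fixes that total, the large subunit had 1396 ± 86.1 and 1546 ± 114 and the small subunit 732 ± 28.0 and 776 ± 74.1 (SD, n = 3 each). The TPM sums of the 2 ages overlapped. As a share of counts, the 78 genes took 0.153% ± 0.00389 in young and 0.216% ± 0.00814 in aged cartilage (SD, n = 3 each).

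**Figure D3:**
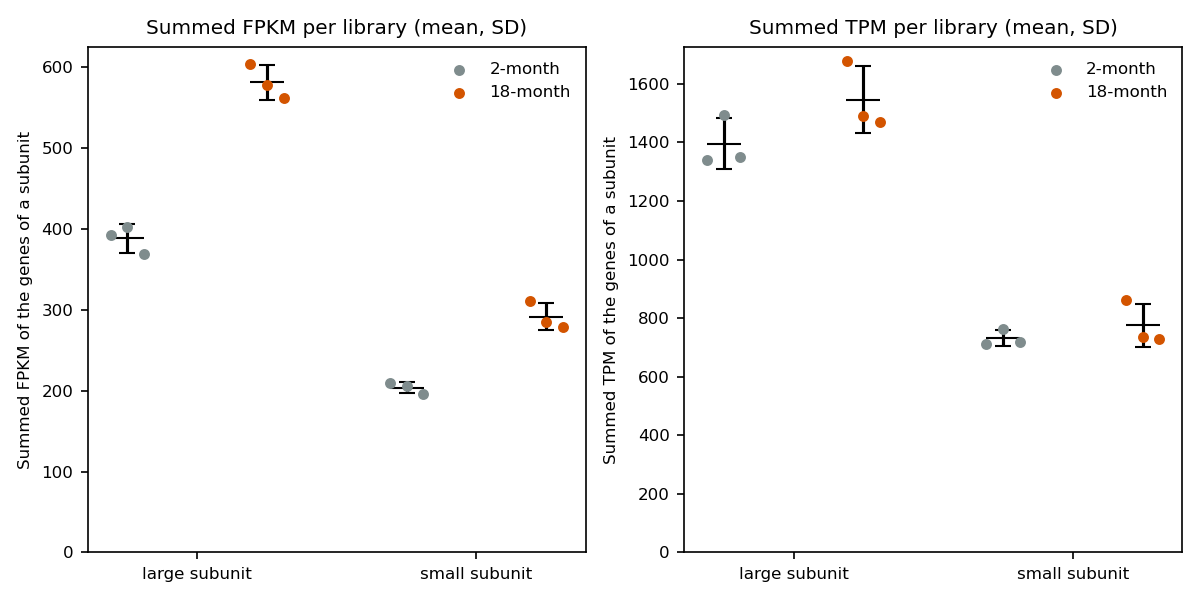
Summed FPKM (left) and summed TPM (right) of the large and small subunit genes in each library, with mean and SD of 3 libraries. The FPKM sums of the 2 ages are separate in both subunits, and the TPM sums overlap.

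Single genes spread widely around these sums. In every library the SD of log2 FPKM over the genes of a subunit lay between 0.92 and 1.08. Median FPKM was 6.47, 7.50 and 6.64 for the large subunit in the 2-month libraries, and 10.7, 10.2 and 10.2 in the 18-month libraries. For the small subunit it was 5.62, 5.58 and 4.73 and then 7.32, 6.32 and 6.62. The highest large subunit value was that of Mrpl24 in each young library, at 26.6 to 28.8 FPKM, and that of Mrpl18 in each aged library, at 37.2 to 39.8 FPKM. The highest small subunit value was that of Mrps21 in all libraries but 18-month replicate 3, where Mrps18c stood above it at 34.3 FPKM.

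Other genes of translation and respiration were examined for comparison. Of all tested genes, 23.4% were higher and 27.9% lower. The 80 genes named for the cytosolic ribosome, paralogs included, had a median log2 fold change of 0.32, with 25 higher (31.2%) and 0 lower. At an unadjusted p-value below 0.05 in edgeR 0 of them were lower, and 0 in DESeq2 after adjustment. The highest was Rps27l (0.91, standard error 0.09), and the lowest was Rpl3l (−1.01, standard error 0.60, not passed). The 74 nucleus-encoded subunits of respiratory complexes I to IV and the ATP synthase had a median of 0.65, with 55 higher (74.3%) and 0 lower. They ran from Ndufab1 (−0.16, not passed) to Cox5a (1.89), with 0 lower at an unadjusted p-value below 0.05 in edgeR and 0 in DESeq2. The ratio of summed FPKM of mitochondrial ribosomal proteins to these subunits went from 0.292 ± 0.00454 in young to 0.263 ± 0.00986 in aged cartilage (SD, n = 3 each). These ratios did not overlap. The ratio to cytosolic ribosomal proteins was 0.0426 ± 0.00856 and 0.0467 ± 0.00337 (SD, n = 3 each), and here the ages overlapped.

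Genes that build or serve the mitochondrial ribosome were counted in the same way, against 23.4% of all tested genes higher and 27.9% lower. Of 5 ribosomal proteins with other names, 2 were higher (median 0.28). Among them Aurkaip1 rose from 15.2, 13.4 and 11.9 to 30.4, 28.3 and 28.8 FPKM (1.03, standard error 0.13, edgeR adjusted p = 0.0023), and Dap3, a GTP-binding protein of the small subunit, did not pass (−0.15, standard error 0.11). Of 26 genes of ribosome assembly and rRNA modification, 6 were higher (23.1%) and 3 lower (median 0.09). Rbfa, a factor of small subunit maturation, had the highest log2 fold change of all mitochondrial translation genes listed, 2.20 (standard error 0.18, edgeR adjusted p = 0.0012), with 5.85, 10.1 and 7.17 FPKM in young and 38.2, 36.6 and 36.5 in aged cartilage. Gtpbp10, a GTPase of large subunit assembly, was lower by contrast (−0.73, standard error 0.18, edgeR adjusted p = 0.018). Of 14 translation factors, 3 were higher (21.4%) and 1 was lower (median 0.09). These included the elongation factor Gfm1 (0.89, standard error 0.11, edgeR adjusted p = 0.0023) and the ribosome recycling factor Mrrf (−0.76, standard error 0.18, edgeR adjusted p = 0.018). Of 20 genes that charge mitochondrial tRNAs, 5 were higher and 2 lower (median 0.22), from Mars2 (1.16, standard error 0.39, edgeR adjusted p = 0.049) to Ears2 (−0.81, standard error 0.23, edgeR adjusted p = 0.031). The shares higher in these last 3 lists were near that of all genes, and their difference from the ribosomal proteins was not tested.

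**Figure D4:**
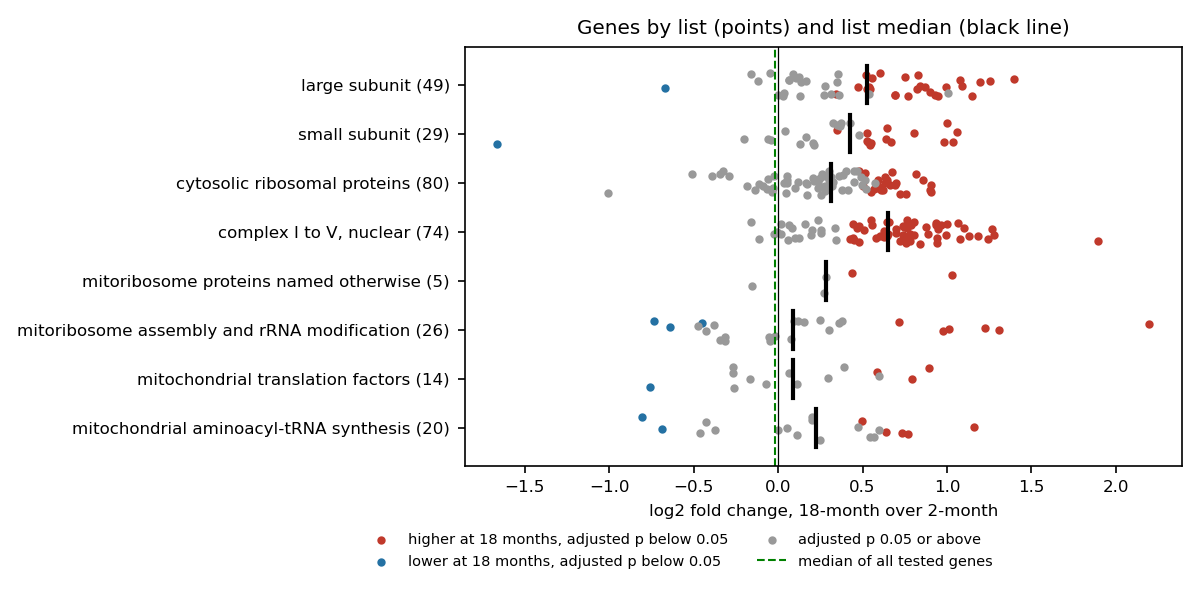
Log2 fold changes of single genes (points, coloured by call) and list medians (black lines) for the 2 subunits and 6 other lists, with the number of genes in brackets and the median of all tested genes as a dashed line at −0.02. The medians of both subunits lie between those of complexes I to V (0.65) and of assembly factors (0.09).

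Many of these genes lie close to another gene. Exons of 33 of the 78 overlap an exon of another gene, 8 on the same strand and 28 on the opposite strand. The library kit marked strand, but the strand setting of the authors' counting is not given in the sources used here. The 45 genes without an overlap had a median of 0.36, with 20 higher (44.4%) and 1 lower. The 33 with an overlap had a median of 0.54, with 20 higher (60.6%) and 1 lower. A protein-coding neighbour on the opposite strand that starts within 1000 bases was found for 33 genes. The rule did not ask that the genes of a pair run apart, and in some pairs their exons overlap. In 32 of these pairs both genes were tested. Where the mitochondrial ribosomal gene was higher (17 pairs), the neighbour was higher in 12, lower in 2 and not passed in 3. Where it did not pass (15 pairs), the neighbour was higher in 4, lower in 2 and not passed in 9. Of all tested genes, 23.4% were higher and 27.9% lower. Over the pairs the median was 0.48 for the ribosomal genes and 0.49 for the neighbours.

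Single pairs ranged from like to opposite changes. Mrps11 and Mrpl46 are neighbours on opposite strands of chromosome 7, starting 412 bases apart and sharing 173 exon bases. Both were higher, so this pair counts from both sides. Mrpl18 starts 644 bases from Tcp1, with 141 shared exon bases on opposite strands. Tcp1 encodes a chaperonin subunit and was higher too (0.42, standard error 0.11, edgeR adjusted p = 0.023). Next to Mrpl57, the mitotic gene Ska3 differed by more (2.95, standard error 0.77, edgeR adjusted p = 0.023). Ncapd2, next to Mrpl51, was higher as well (2.34, standard error 0.53, edgeR adjusted p = 0.014). The proliferation markers given above moved in the same direction, and a link between them and these neighbours was not tested. Mrpl32 was higher beside the proteasome gene Psma2 (1.08). That call of Mrpl32 was lost without 2-month replicate 1 or 3 or 18-month replicate 2 or 3 (edgeR adjusted p = 0.052 to 0.084). By contrast, Mrpl14 was higher (0.55) beside Tmem63b, which was lower (−1.15), and Mrpl10 beside Lrrc46 (−1.88). The call of Mrpl14 was lost without 2-month replicate 3 or any 1 of the 18-month replicates (edgeR adjusted p = 0.056 to 0.099), while Tmem63b was lower with each library left out. Lrrc46, like Mrpl10, passed with 2-month replicate 2 left out and with no other (edgeR adjusted p = 0.051 to 0.072 for the others). Of the 18 alternatives other than the test against a fold change of 2, Mrpl14 was higher in 11, Mrpl32 in 10 and Mrpl10 in 7.

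**Figure D5:**
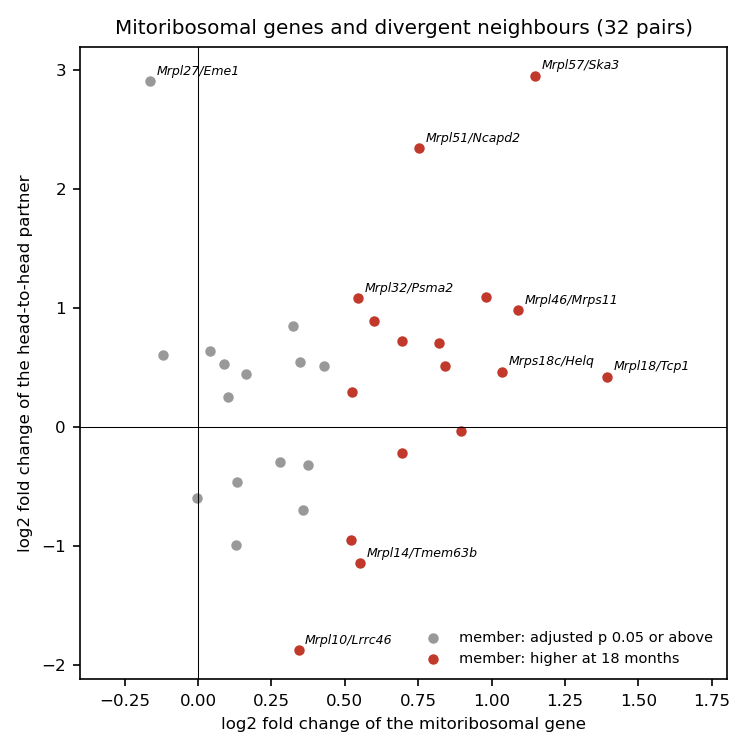
Log2 fold change of 32 mitochondrial ribosomal genes (horizontal) and of their opposite-strand neighbours that start within 1000 bases (vertical). Red points mark pairs where the ribosomal gene was higher. Of the 17 red points, 12 have a neighbour that was also higher, and Mrpl14 and Mrpl10 have one that was lower.

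The promoters were searched for 4 short motifs that are well known upstream of nuclear genes for mitochondria. RefSeq promoters of 300 bases, 250 before and 50 after the start (build GRCm38.p6), were matched for 69 of the 78 genes and searched on both strands. The NRF1 motif, GCGC followed by A, any base and GCGC, was in 13 of them (18.8%), against 4.60% of all 32851 promoters. The ETS family motif CCGGAAG was in 24 (34.8%, against 8.86%), the YY1 motif AAGATGG in 13 (18.8%, against 6.34%) and the Sp1 motif GGGCGG in 34 (49.3%, against 35.7%). Of the 35 matched genes that were higher, 9 held the NRF1 motif, 13 the ETS motif, 6 the YY1 motif and 19 the Sp1 motif. Of the 32 that did not pass, 3, 10, 7 and 13 held them in the same order, and these differences were not tested. A match describes the letters and does not show that a factor binds there.

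The stretches upstream of 5 genes are given as examples that differ in the motifs they hold, chosen after their values were seen. Mrpl22 had the second highest log2 fold change of the large subunit and Mrps22 the highest of the small one, Mrpl17 and Mrps6 had the lowest, and Mrpl12 is the stalk protein. Each runs 5′ to 3′ on the gene's strand, covers the part of the 250 upstream bases outside annotated exons, and has matches to any of the 4 motifs, on either strand, in capitals. Mrpl22 (chr11:58171414-58171660, plus strand) and Mrps22 (chr9:98601680-98601929, minus strand), both higher, hold the ETS motif close to the start, and Mrps22 also the Sp1 motif. Mrpl12 (chr11:120484387-120484612, plus strand) holds the NRF1 motif.
Mrpl22: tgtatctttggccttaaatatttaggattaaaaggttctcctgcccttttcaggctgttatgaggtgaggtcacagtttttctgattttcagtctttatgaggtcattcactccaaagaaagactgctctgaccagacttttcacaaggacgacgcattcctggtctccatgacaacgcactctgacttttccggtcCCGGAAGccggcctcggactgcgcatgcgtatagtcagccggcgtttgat
Mrps22: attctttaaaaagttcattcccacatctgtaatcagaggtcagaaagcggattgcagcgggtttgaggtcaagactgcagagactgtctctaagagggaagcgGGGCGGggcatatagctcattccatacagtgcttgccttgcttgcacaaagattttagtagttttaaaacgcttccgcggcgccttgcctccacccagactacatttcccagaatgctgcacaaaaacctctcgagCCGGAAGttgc
Mrpl12: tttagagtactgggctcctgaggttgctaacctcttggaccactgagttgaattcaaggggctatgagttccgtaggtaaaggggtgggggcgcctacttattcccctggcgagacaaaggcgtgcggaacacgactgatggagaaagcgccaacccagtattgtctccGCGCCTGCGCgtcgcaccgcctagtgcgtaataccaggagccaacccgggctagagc

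Of the 2 genes that were lower, 1 held the NRF1 motif, 1 the ETS motif, 0 the YY1 motif and 2 the Sp1 motif. Mrpl17 (chr7:105811100-105811337, minus strand) holds the NRF1 motif, an ETS motif that overlaps an Sp1 motif, and further Sp1 motifs. Mrps6 (chr16:92058086-92058269, plus strand) holds 4 Sp1 motifs, of which the first 2 overlap, and none of the other 3 kinds in this stretch. The promoter windows of Mrps6 and Slc5a3 share 286 of their 300 bases, and those of Mrps11 and Mrpl46 share 141.
Mrpl17: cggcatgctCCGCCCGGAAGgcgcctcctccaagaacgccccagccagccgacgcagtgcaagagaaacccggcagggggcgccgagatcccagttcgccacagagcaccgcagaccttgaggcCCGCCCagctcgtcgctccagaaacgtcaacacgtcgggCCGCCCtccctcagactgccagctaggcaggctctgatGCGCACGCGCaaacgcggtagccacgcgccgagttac
Mrps6: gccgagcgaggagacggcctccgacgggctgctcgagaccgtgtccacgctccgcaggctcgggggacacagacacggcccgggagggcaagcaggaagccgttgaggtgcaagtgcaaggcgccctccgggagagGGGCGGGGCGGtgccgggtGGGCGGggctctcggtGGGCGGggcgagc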

How the data were processed

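Poly(A) RNA of mouse articular cartilage was sequenced in 3 libraries per age. The authors deposited 1 table with raw read counts (whole numbers) for each gene, and FPKM values scaled by transcript length and library size. Per the labels, the submitters' processing notes list cutadapt 1.9, HISAT2 2.0.4, UMI-tools, StringTie 1.3.4d, DESeq2 and edgeR, without roles. Libraries held 48171507 to 59085179 counts. Of 33971 genes, 33865 were found in GENCODE M21 (GRCm38) by identifier, 29627 with identical coordinates; of the 78 genes studied, 69 had identical coordinates. All 6 libraries were used.

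The counts were analysed with edgeR 4.0.16 in R 4.3.3 (TMM, filterByExpr, quasi-likelihood test, age as the single term, Benjamini-Hochberg adjustment over 20397 genes). Calls used an adjusted p-value below 0.05, without or with a log2 fold change beyond 1. Standard errors are the absolute log2 fold change over the root of F. TPM was computed from FPKM. The smallest p-value of an exact permutation test is 0.1 for 3 libraries against 3. Between libraries of the same age, counts differed by a median chi-square of 6.32 times counting noise for 18-month replicates 2 and 3, and 13.1 to 48.7 times for other pairs, so all were kept apart.

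The members, gene lists and rule for named genes were chosen with earlier results of these data known. The rule names, in each subunit, the 5 highest and 3 lowest log2 fold changes, the 2 highest and 2 lowest mean FPKM, genes past both limits, 11 genes chosen by role, and the highest and lowest gene of each other list. Mrpl53, the neighbouring genes and the library checks were added after values were seen. Alternatives used DESeq2 1.42.0, limma 3.58.1 on log2(FPKM + 0.1), log2(FPKM + 1) and log2(TPM + 0.1) for a mean FPKM of at least 0.1, other scalings, filters, a replicate block and leaving out each library. Summing 18-month replicates 2 and 3, and counting Mrpl55 as mitochondrion-specific instead of bacterial-type (29 and 22 genes in place of 30 and 21), were added after seeing the data. Scripts were tested on simulated data, in which the spread of each gene was capped at the median over genes. The simulated data were thus easier than the real ones, and this test does not bear on the results. Python 3.11.15, pandas 2.3.3 and matplotlib 3.10.9 were used.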

Additional observations from a re-analysis of the deposited data

Results flagged for a closer look

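Of 5 processed pseudogene rows outside the comparisons, 1, Mrpl23-ps1, was above the young libraries in each aged one and was picked for this. Among all tested genes, 35.6% lay above in this way by FPKM. The level of Mrpl23-ps1 went from 0.512 ± 0.211 CPM in young to 1.25 ± 0.337 CPM in aged cartilage (SD, n = 3 each), on 14 to 88 counts per library. Reads of a processed pseudogene cannot be told apart with certainty from those of its parent gene. Mrpl23 itself overlapped between the ages and did not pass (log2 fold change 0.03, standard error 0.15, edgeR adjusted p = 0.87).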

How the results depend on the processing

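Of the 42 genes past the test, 40 kept their direction in all 19 alternatives, and 19 stayed past it in all 18 alternatives other than the test against a fold change of 2. The exceptions in direction were Mrpl10 and Mrps35, which had −0.012 and −0.0091 with TPM. For large subunit genes, the count higher (26) was 1 against a fold change of 2 and 13 with TPM, and 18 to 29 with 1 library left out. The count lower (1) was 0 against a fold change of 2, 2 with TPM, 3 with quantile-normalized FPKM, 0 with 18-month replicates 2 and 3 summed and 0 to 1 with 1 library left out. The count higher past both limits (6) was 1 against a fold change of 2, 10 with limma on log2(FPKM + 0.1), 1 with TPM and 5 to 10 with 1 library left out. The count lower past both limits (0) was 1 with TPM. The median (0.52) was 0.17 with TPM and 0.34 with quantile normalization, where the median of all genes was −0.33 and −0.10. For small subunit genes, the count higher (14) was 0 against a fold change of 2, 5 with TPM, 7 with quantile normalization and 8 to 15 with 1 library left out. The count lower (1) was 1 to 2 with 1 library left out. The count higher past both limits (2) was 4 with median-of-ratios size factors, total counts alone, no filter, DESeq2, limma on log2(FPKM + 0.1), the replicate block and 18-month replicates 2 and 3 summed, 1 with limma on log2(FPKM + 1), 0 with a mean FPKM of at least 1, against a fold change of 2, with TPM and with quantile normalization, and 1 to 4 with 1 library left out. The median (0.43) was 0.083 with TPM. The cause was not tested, except that a test against a fold change is stricter by construction. Among the alternatives, the share of all genes higher was taken with TPM and without 2-month replicate 2 alone.

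The correlations of deviations between same-numbered libraries were 0.034, 0.044 and −0.024, which gave no sign that the replicate numbers pair the libraries. With 3 libraries per age, these correlations cannot exclude a pairing. With the number as a replicate block, 21 large and 10 small subunit genes were higher, and not every library correlated best with its own number. Each of the 78 genes had at least 101 counts in every library, and libraries of the same age differed by 6.32 to 48.7 times counting noise over all genes.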
